A study of Mus musculus with 6 samples.

Results

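The regions described here lie at the ends of genes. They are the TERT CUT&Tag regions on chromosomes 1 to 19 and X that the authors' deposited annotation placed in a 3' UTR or at a transcription termination site, and there were 1418 of them among 41515 regions in all. Of these, 763 were 3' UTR regions and 655 termination-site regions. They came from 3 lists of regions: 287 from the list common to both conditions, 514 from the list higher with BIBR1532 and 617 from the list higher with vehicle.

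TERT, the catalytic subunit of telomerase, was mapped in primary neurons cultured from cortex and hippocampus of C57BL/6 embryos at embryonic day 15 to 18. In CUT&Tag an antibody tethers a transposase, which cuts and tags DNA next to the bound protein. The 3 vehicle samples received DMSO, although 1 label field names them untreated, and the 3 BIBR1532 samples received 2 µM of this telomerase inhibitor for 24 h. The lists were made from the combined libraries of each condition, so a region has no value per sample, each condition is 1 pooled measurement and no test between the conditions could be made.

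A gene's end is where its transcript is cleaved and polyadenylated, downstream of the coding sequence and inside or at the border of the last exon. The 3' UTR carries binding sites for microRNAs and for the proteins that set where an mRNA goes in a neuron and how long it lasts. Beyond the cleavage site RNA polymerase continues for some distance before it is released, and in compact parts of the genome the next gene may already begin there.

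The direction of each condition-specific list is likely rather than stated, because it was read from the order of the conditions in the names of the lists. Each region carries the authors' own score, which the sources used here do not define. It served only to rank regions within a condition-specific list, and 1 value recurs in each of these lists (the tied score: 6.34 for BIBR1532 and 5.19 for vehicle). Common regions were ranked by width instead. No control antibody library is among the samples, and depth is unknown from the lists. The intervals below are exact (Clopper-Pearson) 95% intervals and cover counting error only.

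The sequences that bear on the gene-end regions are of 2 kinds. The first kind is shown because many common termination-site regions lay beside the start of a following gene. The stretches below come from 3 such starts in the RefSeq promoter table of GRCm38.p6, 5' to 3' on the strand of the starting gene, with the motif in capitals. They are named by the gene that starts there.
Smdt1 (chr15:82345889-82345918, plus strand, behind the end of Pheta2): cgtccttctccTGACGTCActacgtcgtcc
Shkbp1 (chr7:27355982-27356011, minus strand, behind the end of Sptbn4): tctatgcacacCCGGAAGTgggtgcgagcc
Pagr1a (chr7:127017383-127017412, minus strand, behind the end of Prrt2): gggccaaattGCGCATGCGCaagtcttctc

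The motifs searched in windows of 300 bases, on both strands, were TGACGTCA (the CRE), CCGGAAGT (an ETS site), the NRF1 site, GGGCGG (the GC box), TATAAA and CCAAT. Over all 32851 promoter windows of the table, 1.79% held the CRE, 3.89% the ETS site and 0.971% the NRF1 site. Among the 22 windows covered by at least 50 bp of a common termination-site region, each of these 3 motifs stood in 1, so the stretches shown are single matches. The ETS motif of Shkbp1 lay inside the common region itself, 8 bases from the start site, whereas the motifs of Smdt1 and Pagr1a lay outside theirs. The median G+C content of those 22 was 61.5%, against 52.7% over all windows, and their median number of CpG dinucleotides was 19 against 7. The GC box stood in 19 of the 22 (86.4%), against 35.7% of all windows. The 8 windows covered in the same way by vehicle termination-site regions had like values, with a median G+C content of 61%, a median of 17 CpG dinucleotides and the GC box in 6 (75%), and BIBR1532 ones covered 0 windows. The window of B3gnt4 was in both sets, and some regions covered more than 1 window. Windows under common regions of other classes were not compared, so these values are not shown to be particular to gene ends. A match says that the letters are present and nothing about a bound factor.

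The second kind are microRNAs whose own gene ends carried a region, shown as mature sequences of the same RefSeq build with the seed (bases 2 to 8) in capitals.
miR-132-3p: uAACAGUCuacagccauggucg
miR-92b-3p: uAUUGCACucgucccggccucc
miR-8114: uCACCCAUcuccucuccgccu
miR-5133: gCUGGAGCugcggcagcgcag

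The 4 seeds differ from each other. The gene of miR-132, a microRNA induced by neuronal activity, had a BIBR1532 region at chr11:75173728-75173849 with a score of 1.53, and the mature 3p sequence, at chr11:75173723-75173744, reached into it. The gene of miR-92b had both a common region (89226174 to 89226456 on chromosome 3) and a vehicle region (89226504 to 89226978, score 9.36). Those of miR-8114 and miR-5133 had common regions that held the whole mature sequence. Both regions also overlapped promoter windows of other genes. The overlap was 78 bp at Glul and 126 bp at Gm38440 for miR-8114, and 75 bp at Glce for miR-5133. Their signal thus cannot be assigned to the microRNA gene alone. In all, 9 of 123 common, 17 of 247 BIBR1532 and 12 of 285 vehicle termination-site regions belonged to microRNA genes. The share of microRNA genes was not counted over all regions, so no list is shown to favour them.

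Gene ends were a small part of every list and a slightly larger part of the common one. The 3' UTR class held 2.41% of common regions (164 of 6812, interval 2.06 to 2.80), 1.65% of BIBR1532 regions (267 of 16149, 1.46 to 1.86) and 1.79% of vehicle regions (332 of 18554, 1.60 to 1.99). The interval of the common list did not overlap those of the other lists. Without regions annotated to a repeat, which are never gene-end regions, the 3' UTR shares were 2.52%, 2.21% and 2.40%, with overlapping intervals, so the lead of the common list did not hold in that setting. Among regions of at least 500 bp the order changed, to 0.690%, 1.17% and 0.816%. The termination-site class held 1.81%, 1.53% and 1.54%, with overlapping intervals. Of all regions, 16.4% were in the common list, 38.9% in the BIBR1532 list and 44.7% in the vehicle list, and of the gene-end regions 20.2%, 36.2% and 43.5%. In the plot of list shares the common list is highest in both classes.

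**Figure D1:**
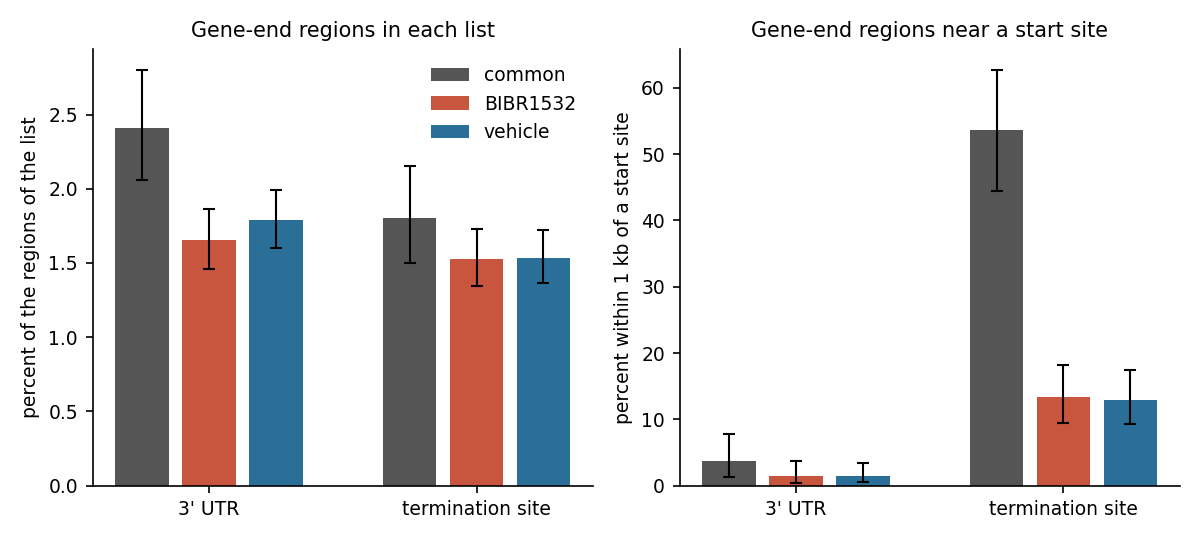
Left, gene-end regions as a percentage of the regions in each list, by class; right, the percentage of gene-end regions with a transcription start site at most 1 kb from their centre. Bars are the pooled lists (common, BIBR1532, vehicle) and error bars exact 95% intervals for counting error; in the right panel the common termination-site regions stand at 53.7% and the other lists at 13.4% and 13.0%.

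The 2 classes differed in what lay around them. Of the common termination-site regions, 66 of 123 (53.7%, interval 44.4 to 62.7) had a transcription start site within 1 kb, against 33 of 247 (13.4%) in the BIBR1532 list and 37 of 285 (13.0%) in the vehicle list. Over all classes of region the shares were 72.7%, 17.6% and 15.9%. For 3' UTR regions they were 3.66%, 1.50% and 1.51%.

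The start beside a common termination-site region belonged to a different gene in 51 of the 66 cases. Where the strands of both genes were known, 41 of 42 such pairs were on the same strand, so that the end of one gene was followed by the start of another in the same direction. The BIBR1532 list had 16 such neighbours of 33 (8 of 10 on the same strand) and the vehicle list 24 of 37 (16 of 19). The smallest distance of a termination-site region to a start was 102 bp (common), 106 bp (BIBR1532) and 113 bp (vehicle), so regions at a start itself fall outside this class. A start on the other strand just past a gene end would mostly mean overlapping genes. The strand counts thus follow largely from the class and say little about TERT. In the common list the widest region beside the start of another gene lay at the end of Camta2, a calmodulin-binding transcription activator gene, and the start of Spag7 (965 bp, chromosome 11, 70668583 to 70669547). Next came the end of the chloride channel gene Clic1 with the start of Ddah2 (794 bp), the end of Dhrs13 with the start of Flot2 (616 bp) and the end of Cramp1l with the start of Jpt2 (600 bp). In the BIBR1532 list the widest included those at Gm16617 and Arhgef40 (447 bp) and Ip6k1 and Gmppb (362 bp). In the vehicle list they were at the homeobox genes Rhox2a and Rhox3a (1070 bp), P4htm and Wdr6 (648 bp), Mapk8ip3 and Nme3 (438 bp) and Slc39a1 and Crtc2 (414 bp). Common termination-site regions also overlapped a promoter window more often, in 33 of 123 cases, against 3 of 247 and 8 of 285. This overlap was not counted over all regions. The common list as a whole lay nearer to starts, with 72.7% of all its regions within 1 kb, against 17.6% and 15.9%. The difference is therefore not shown to be a trait of gene ends.

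Common 3' UTR regions lay closer to the end of the gene. The distance from the centre of a region to the end of its gene could be measured for 152 common, 239 BIBR1532 and 298 vehicle 3' UTR regions. The median was -492 bp, -1102 bp and -853 bp, where negative values lie inside the gene. Of the common ones, 50.7% (interval 42.4 to 58.9) lay within the last 500 bp of the gene, against 29.3% (23.6 to 35.5) and 30.9% (25.7 to 36.5). The interval of the common list does not overlap the others. Without genes over 50 kb the shares were 55.7%, 36.0% and 36.1%. The last stretch before the end belongs to the termination-site class, so the 3' UTR centre nearest to a gene end was 103 bp inside it. All but 1 of the 164 common 3' UTR regions, all 267 BIBR1532 ones and all but 1 of the 332 vehicle ones were in the last exon of the annotated transcript. Termination-site centres lay mostly past the gene end, at medians of 515, 372 and 410 bp, in 92.5%, 87.4% and 81.4% of cases. The farthest centres lay 993, 994 and 978 bp past it. The class thus covers a limited stretch around and mostly past the end, and this position is a trait of the annotation.

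**Figure D2:**
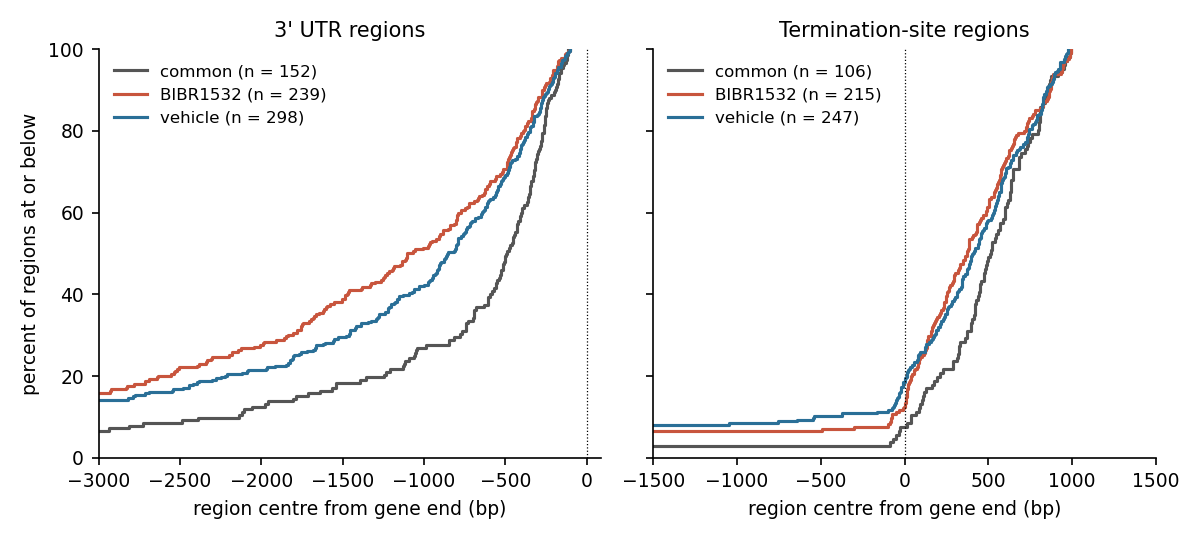
Cumulative percentage of 3' UTR regions (left) and termination-site regions (right) by the distance of the region centre from the end of its gene, in bp, with negative values inside the gene; each line is 1 pooled list. The common 3' UTR line rises nearest to the gene end, with a median of -492 bp against -1102 and -853 bp.

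The genes differed in length as well. Genes with a common 3' UTR region had a median length of 17329 bp, near the 17146 bp of all 21900 protein-coding genes in the reference, whereas those with a BIBR1532 or vehicle one had 33696 and 30272 bp. Median widths were alike, at 213, 219 and 202 bp for 3' UTR regions and 234, 226 and 210 bp for termination-site regions. Regions of at least 500 bp made up 4.27% of common, 11.2% of BIBR1532 and 6.93% of vehicle 3' UTR regions.

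The common 3' UTR regions lay in 158 protein-coding genes, 0.721% of all. The widest was at Arf1, a small GTPase gene of Golgi transport (611 bp, chromosome 11, 59211701 to 59212311). Then came the nonagouti gene a (573 bp), the lysosomal membrane gene Lamp1 (549 bp), the ubiquitin ligase subunit gene Rnf7 (549 bp), BC053393 (540 bp) and the tropomyosin gene Tpm4 (527 bp). Arf1 and a lay over 9 kb from any condition-specific region, whereas the Lamp1 region lay 9 bp from a BIBR1532 region, that of Tpm4 141 bp from a vehicle region, and that of BC053393 touched one. Of the 158 genes, 39 (24.7%) also had a common promoter region, 11 a common exon region and 16 a common intron region. The share with a common promoter region was 14.1% over all protein-coding genes. Genes with a BIBR1532 3' UTR region had one in 21.6% of cases and those with a vehicle 3' UTR region in 29.8%.

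Several of the 158 genes encode abundant proteins of the cytoskeleton, of protein folding and of energy metabolism. The gene groups in this paragraph and the next were written out after these values were seen, so their counts describe the 3' UTR list and support nothing further. Of 40 actin and actin-binding genes, 13 had a common 3' UTR region: the cytoplasmic actins Actb and Actg1, the actin-severing genes Cfl1 and Dstn, the monomer-binding genes Tmsb4x and Twf1, the Arp2/3 subunits Actr3 and Arpc5, and Cnn3, Coro1c, Tagln2, Tpm4 and Wasf2. The region of Actg1 was 416 bp wide (chromosome 11, 120345739 to 120346154) and that of Cfl1 403 bp (chromosome 19, 5493472 to 5493874). Of 24 chaperone genes 7 had one, among them the Hsp90 gene Hsp90aa1 (319 bp) and the mitochondrial chaperonin gene Hspd1 (285 bp). Of 21 genes of ATP synthase and succinate dehydrogenase 6 had one, such as Atp5b (152 bp), Atp5g3 (171 bp) and Sdhd (190 bp). Of 10 calmodulin and 14-3-3 genes 4 had one, among them Ywhae (500 bp) and Ywhaz (125 bp). For reads that fit several copies of a gene, such as processed pseudogenes, the placement is not given in the sources used.

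Other members of the 158 are known from early embryos and epithelia. Of 30 pluripotency and early-embryo genes, 7 had a common 3' UTR region and 1 (Klf2) a common promoter region. They were Dppa3 (185 bp, chromosome 6, 122630007 to 122630191), Dppa4 (154 bp), Gata3 (216 bp), Plet1 (203 bp), the zinc finger gene Sall4 (211 bp), the Nodal co-receptor gene Tdgf1 (136 bp) and Trim43a (359 bp). In addition Dppa2, Dppa3, Utf1 and Pou5f1, which encodes Oct4, had common exon regions. Of 25 epithelial genes, 6 had a common 3' UTR region and 1 (Lsr) a common promoter region. They were the E-cadherin gene Cdh1 (133 bp, chromosome 8, 106669672 to 106669804), the claudin gene Cldn4 (352 and 124 bp), Edar (381 bp), the adhesion gene Epcam (238 bp) and the protease inhibitor genes Spint1 (201 and 140 bp) and Spint2 (138 bp). The keratin genes Krt8 and Krt18 had common exon regions.

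Neuronal genes were counted as well. Of 25 neuronal genes, also listed after the values were seen, 0 had a gene-end region in any list, and 8 had a common promoter region: Map1b, Nsg1, Snap25, Stmn1, Syt1, Tuba1a, Tubb2b and Uchl1. Over all protein-coding genes these shares were 5.52% and 14.1%, so 0 among 25 genes is near the share of all genes. These lists hold TERT signal on DNA and no expression, so the labelled cell type could not be checked by expression. Among the cell type markers taken for that purpose, 0 of 10 neuronal markers had a gene-end region and 2 (Snap25 and Syt1) had a common promoter region. For other cell types, gene-end regions lay at 1 of 5 astrocyte markers (Gfap, BIBR1532), 3 of 5 oligodendrocyte-lineage markers (Mbp and Olig1, BIBR1532, and Pdgfra, vehicle), 1 of 5 microglial markers (Tmem119, vehicle), 0 of 5 neural progenitor markers and 0 of 5 endothelial markers. Of all protein-coding genes, 5.52% had a gene-end region. Common gene-end and common promoter regions were at 0 markers of these other cell types. Condition-specific promoter regions, however, lay at Gfap, Mbp and Mki67 (vehicle) and at the progenitor marker Nes (BIBR1532). They also lay at the neuronal markers Rbfox3 (BIBR1532), Stmn2 and Tubb3 (vehicle). The part of other cells in the results was not tested.

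**Figure D3:**
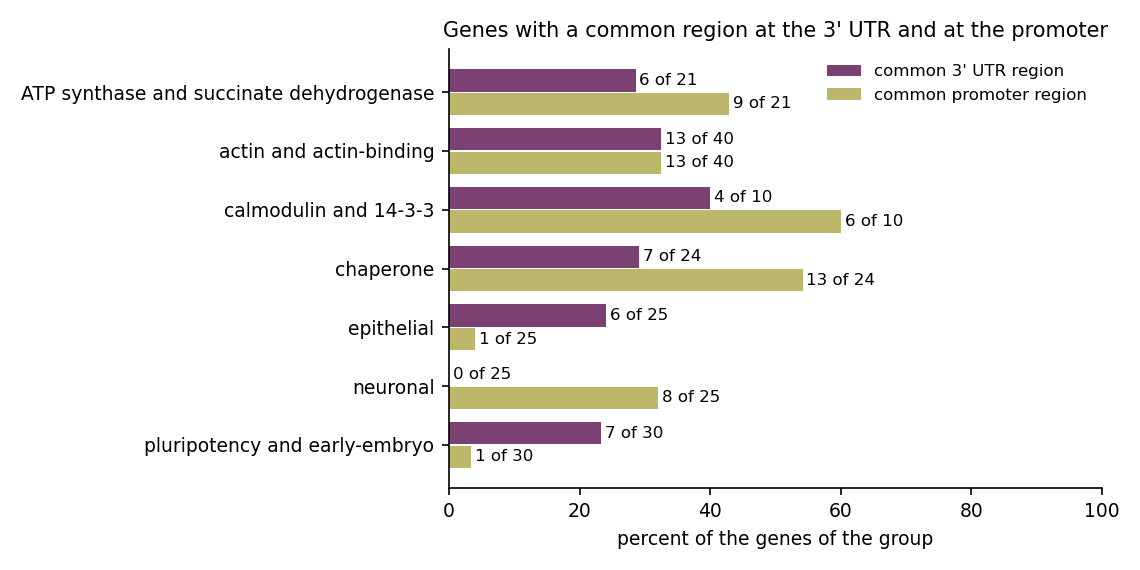
Percentage of the genes of 7 groups, listed after the values were seen, that had a common 3' UTR region or a common promoter region, with the counts beside the bars. The pluripotency and epithelial groups have more genes with a 3' UTR region (7 of 30 and 6 of 25) than with a promoter region (1 of 30 and 1 of 25), and the neuronal group has 0 against 8 of 25. Over all protein-coding genes the shares are 0.721% (common 3' UTR region) and 14.1% (common promoter region), so the 0 of the neuronal group is near the share of all genes.

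At some of these genes the signal ran from one list into another. At Tdgf1 a vehicle region (110939736 to 110939872 on chromosome 9, score 1.76) ended 1 base before the common region began. At Ywhaz a BIBR1532 region (36771047 to 36771399 on chromosome 15, score 2.31) ended 1 base before the common one, and at Actb a vehicle region (score 1.90) overlapped the common region. In all, 12 BIBR1532 and 21 vehicle gene-end regions touched or overlapped a common region, or 12 of 514 and 21 of 617, against 2.77% and 2.73% of all regions of the same lists. Most of these had a score below the tied one, 10 of 128 BIBR1532 regions (7.81%) and 19 of 97 vehicle ones (19.6%), with 0 at the tied score and 2 above it in each list. Over all regions below the tied score the shares were 10.3% and 18.0%, so gene ends stood near the lists as a whole.

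Genes with a 3' UTR region in both a condition-specific list and the common list were counted by score as well, whether or not the regions met. Of the genes with a BIBR1532 3' UTR region below the tied score, 9 of 59 (15.3%) also had a common 3' UTR region, against 0 of 123 at the tied score and 1 of 80 above it (Hadh, a mitochondrial fatty acid oxidation gene). For vehicle the counts were 15 of 50 below, 0 of 138 at and 4 of 140 above the tied score (Arf4, BC053393, Selenof and Twf1). Twf1, which encodes an actin monomer-binding protein, had the highest vehicle score among them, 11.9, in a region 195 bp from the common one. The whole lists gave a like pattern by contact between regions, which is a different measure. Of all BIBR1532 regions, 10.3% below, 0.0661% at and 0.792% above the tied score touched or overlapped a common region. For vehicle the shares were 18.0%, 0.0537% and 1.02%, so the link with low scores is not particular to gene ends.

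Between the conditions, the balance of the lists at gene ends was near that over all regions. BIBR1532 regions were 514 of the 1131 condition-specific gene-end regions (45.4%, interval 42.5 to 48.4), against 46.5% of all condition-specific regions. They were 44.6% of the 3' UTR and 46.4% of the termination-site class. Below the tied score of each list the BIBR1532 share was 56.9%, at the tied score 47.9% and above it 36.2%, and over all regions the same ranges gave 62.1%, 44.8% and 40.5%. The decline across ranges was thus present in the gene-end regions and in the lists as a whole. These shares rest on the likely direction: if the lists were named the other way round, the BIBR1532 share would be 54.6% and would rise from 43.1% to 63.8% across the ranges. Score ranges do not hold the same signal in each list.

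**Figure D4:**
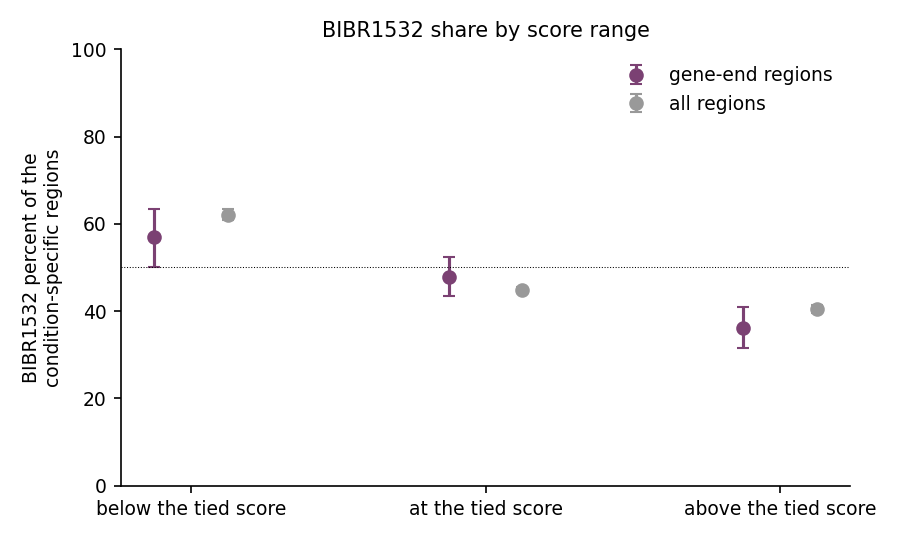
BIBR1532 regions as a percentage of the condition-specific regions below, at and above the tied score of their list, for gene-end regions and for all regions; error bars are exact 95% intervals for counting error and the dotted line marks 50%. Gene-end regions fall from 56.9% to 36.2% and all regions from 62.1% to 40.5%.

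The BIBR1532 3' UTR regions of highest score lay at Adamts4, an aggrecan-degrading protease gene (15.5), Enc1, a neuronally expressed Kelch protein gene (14.5), the dystrophin gene Dmd (13.9), the ubiquitin ligase gene Mgrn1 (13.3), the adaptor subunit gene Ap4s1 (12.5) and the integrin gene Itga11 (12.2). That of Adamts4 spanned 171259045 to 171259637 on chromosome 1 and its centre stood at -2926 bp from the gene end. The termination-site regions of highest score were at the ubiquitin ligase gene Siah1a (17.0), the polycomb-associated gene Asxl3 (16.0), Morn1 (14.7), the phosphatase gene Ptpn6 (13.9), the metallothionein gene Mt2 (13.8) and Nme9 (13.6). The centre of the Mt2 region lay 65 bp past the gene end. The Enc1 region lay 158 bp from a vehicle region, so this high score did not mark an end free of signal in vehicle.

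The vehicle 3' UTR regions of highest score lay at Gja1, which encodes the gap junction protein connexin 43 of astrocytes (17.3), Pramel7 (14.8), the nuclear envelope gene Sun1 (14.3), Tigd5 (11.9), Twf1 (11.9) and the diacylglycerol kinase gene Dgki (11.9). That of Gja1 spanned 56389544 to 56389815 on chromosome 10, with its centre at -740 bp from the gene end, and its nearest BIBR1532 region was 10166 bp away. The termination-site regions of highest score were at the bromodomain gene Brd2 (11.7), Comtd1 (10.9), the RNA helicase gene Ddx39b (10.8), 1700028D13Rik (9.99), Pea15a (9.60) and the anion transporter gene Slc26a9 (9.59).

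The BIBR1532 list named 500 genes by their ends and the vehicle list 598, with 20 in both (4% and 3.34%). Of all protein-coding genes, 2.09% had a BIBR1532 gene-end region and 2.55% a vehicle one, so the number in both is not small for lists of this size. Among protein-coding genes, BIBR1532 3' UTR regions marked 259 (1.18%) and vehicle ones 326 (1.49%), and termination-site regions marked 200 (0.913%) and 239 (1.09%), against 95 (0.434%) for common ones. In the 3' UTR class the shared genes were E2f2, Enc1, Fam53b, Kif1c, Ocrl and Synrg. The cell cycle transcription factor gene E2f2 had a BIBR1532 3' UTR region, a vehicle 3' UTR region and a vehicle termination-site region, each at the tied score of its list. At Kif5a, a neuronal kinesin gene, a BIBR1532 termination-site region and a vehicle 3' UTR region lay 432 bp apart. Within 1 kb of a region of the other condition lay 21 BIBR1532 gene-end regions (4.09%) and 22 vehicle ones (3.57%), against 5.05% and 4.39% of all regions. None of them touched or overlapped a region of the other condition, and over all regions the count was also 0.

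Gene families of neurons and of RNA processing were counted beside the 5.52% of all protein-coding genes with a gene-end region. Of 22 genes of the 3'-end processing machinery, 2 had one: Cstf1 in the common list (185 bp, chromosome 2, 172380793 to 172380977) and Cstf2t in the vehicle list (score 5.19), both cleavage stimulation factor genes. A common promoter region was present at 8 of the 22. Over all protein-coding genes, too, common promoter regions (14.1%) were more frequent than common gene-end regions (1.16%). Of 25 genes whose mRNAs are localized in neurons or follow activity, 4 had one: Actb, Kif5a, the neurotrophin receptor gene Ntrk2 (BIBR1532, 6.34) and the postsynaptic scaffold gene Shank1 (vehicle, 5.63). Of 46 glutamate and GABA receptor genes, 2 had a gene-end region, among them Grm4 with a BIBR1532 3' UTR region (6.60). Of 137 voltage-gated channel genes 6 had a gene-end region, such as Cacna1s (BIBR1532, 7.13) and Kcnk10 (vehicle, 5.19).

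Larger families were counted in the same way. Solute carrier genes had 26 of 389, with Slc30a10, a manganese transporter gene, at a score of 10.2 in the BIBR1532 list and the mitochondrial carrier gene Slc25a25 at 9.19 in the vehicle list. Zinc finger genes with a Zfp symbol had 15 of 400, 0 of them common, and 91 had a common promoter region. Genes with a ribosomal protein symbol had 1 of 101, at the kinase gene Rps6kl1, and 25 had a common promoter region. The gene-end counts are over any list, and their shares (3.75% for Zfp and 0.990% for ribosomal symbols) were below the 5.52% of all protein-coding genes. These differences were not tested. In the common list alone both families had 0 gene-end regions, beside 1.16% of all genes, and their promoter counts stand beside 14.1%. Within the common list promoters thus outnumbered ends over all genes as well, so the direction of that surplus is not particular to these families. Rab GTPase and related genes had 12 of 82, kinesins 5 of 44, ubiquitin enzymes 13 of 218, with the F-box gene Fbxo2 at 9.96 (vehicle), protein phosphatases 12 of 115, with Ppp1cb at 9.38 (vehicle), and homeobox and neural transcription factors 7 of 170, with Hoxc12 at 6.48 (vehicle).

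The gene symbol with the most gene-end regions was Rn4.5s, a small RNA gene present in many copies, with 4 common termination-site regions on chromosome 6. These were annotated to different copies, between 47658450 and 47752879, and do not lie at the end of a single copy. How reads that fit several copies were placed is not given in the sources used. The genes Capn12, Cldn4, E2f2, Fam53b and Tdgf1 were among those with 3 each. Capn12, a calpain protease gene, had a common termination-site region of 207 bp and 2 vehicle ones of 123 and 193 bp, with scores of 2.66 and 1.56.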

How the data were processed

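CUT&Tag libraries of 3 vehicle and 3 BIBR1532 samples were combined by the authors, and 3 annotated lists were deposited. Tools named in the submitters' processing notes, without roles, are Picard, Bowtie2, MACS2 2.1.2 and CASAVA 1.8, with the build mm10. Per the file headers each region has a score, which the authors deposited and which is used here only within a list; MACS2 itself defines such a score as a log10 likelihood ratio, which no deposited text says. The distance to the nearest start site, in bp, is also the authors' value, per the file headers. The scaling of the pools is not given in the sources used.

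The condition-specific lists were decoded from a 7-bit text encoding. Regions whose annotation begins with 3' UTR or TTS were taken. Of 1418, 1413 were matched through their transcript to a gene of the RefSeq table of GRCm38.p6 (mm10). Gene strands came from the promoter table or, where missing, from signed distances, which gave the table's strand for 6488 of 6488 genes; 1257 regions then had a distance to the gene end. Neighbouring was counted within 1 kb. Functions were tested on simulated data. Versions were scipy 1.17.1, numpy 2.4.6, pandas 2.3.3, matplotlib 3.10.9 and Python 3.11.15.

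No test was run between pools, and no region has replicate values. The members and gene lists were chosen with earlier results of these data known, and 7 groups after the gene-end values were seen. Named regions are the 6 of highest score per condition-specific list and class, the 6 widest common ones per class, the genes with most gene-end regions, the 4 widest by another gene's start per list and up to 4 per gene group. The poly(A) hexamer search was not run. Some items that these rules take are not reported here.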

Additional observations from a re-analysis of the deposited data

How the results depend on the processing

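No leave-one-out value could be had, and with 1 pooled measurement per condition every result rests on the lists as called. No paired analysis was possible because the lists pool the replicates. The poly(A) search was not run. Of 133 alternative values for 21 results, 81 stayed inside the exact interval of the reported value and 52 moved out of it. The alternative with all contigs added no gene-end region. Alternatives for the last 500 bp of the gene, for single classes and for nearness to common regions were chosen after seeing the data.

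For the share of gene-end regions in the common, BIBR1532 and vehicle lists, regions of at least 500 bp gave 1.77%, 2.23% and 1.81%, which ended the lead of the common list, and base pairs gave 3.54%, 2.58% and 2.43%. Without repeat-annotated regions the 3 lists stood at 4.41%, 4.26% and 4.46%, which also ended that lead, without regions within 1 kb of a start the common list at 3.16%, and without the tied score the vehicle list at 3.87%. The classes alone gave 2.41%, 1.65% and 1.79% (3' UTR) and 1.81%, 1.53% and 1.54% (termination site). The BIBR1532 share of condition-specific gene-end regions was 48.6% by base pairs and 52.8% at 500 bp.

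Nearness of both classes to a start within 500 bp was 3.50% (BIBR1532) and 4.05% (vehicle), and within 5 kb 46.7%, 25.9% and 25.4% (common, BIBR1532, vehicle). At a width of 500 bp it was 33.3% (common) and 3.51% (BIBR1532), without the tied score 10.9% (BIBR1532) and 9.22% (vehicle), and with a score minimum of 3 it was 4.81% (vehicle). At 500 bp, 27.8% of common regions lay at the end of the gene with the nearest start, and the share of end genes with a common promoter region was 0% (common), 7.84% (BIBR1532) and 2.17% (vehicle). The width limit also removed the narrower promoter regions, and only 1015 of the 6812 common regions of all classes remained. These promoter shares therefore fall through the filter itself and cannot be set beside the 14.1% of all protein-coding genes.

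Genes shared by the BIBR1532 and vehicle lists were 0% at 500 bp, and 1.12% of BIBR1532 and 0.860% of vehicle genes without the tied score. Common genes also in another list were 10.9%, 7.25% and 5.56% at scores of 2 and 3 and at 500 bp. Gene-end regions near the other condition were 0.584% (BIBR1532) and 0.324% (vehicle) within 200 bp, 14.6% and 10.4% within 5 kb and 0% at 500 bp, and 6.81% of vehicle ones lay near common regions. For the value at 500 bp the regions of the other condition were limited to that width as well.

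The share of 3' UTR centres in the last 1 kb was 73.0%, 48.5% and 58.1% (common, BIBR1532, vehicle). In the last 500 bp it was 18.5% for BIBR1532 regions of at least 500 bp, 36.0% for BIBR1532 without genes over 50 kb and 36.8% for vehicle without the tied score, so the common list kept the highest share in each of these. With the gene of the nearest start, 2 calmodulin and 14-3-3 genes and 4 chaperone genes had a common 3' UTR region in place of 4 and 7. The cause of these moves was not tested.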

Other observations

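The widest gene-end regions lay outside the groups described above. In the BIBR1532 list the termination-site region of Awat2, an acyltransferase gene, was 6607 bp wide, and in the vehicle list that of the cytochrome P450 gene Cyp4a31 was 6171 bp wide. The widest 3' UTR region was that of Lin28b, which encodes a repressor of let-7 maturation, at 3505 bp in the vehicle list.

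Termination-site regions of non-coding genes were present in all 3 lists. Long non-coding RNA genes held 9 of 123 common, 23 of 247 BIBR1532 and 23 of 285 vehicle regions, and small nucleolar RNA genes held 3, 2 and 4 of the same totals. These gene types were not counted over all regions. Of the microRNA genes, Mir1932 had 2 BIBR1532 regions, with scores of 8.83 and 2.45, and Mir8114 had a common region and a vehicle region with a score of 5.24.

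Of the pluripotency and early-embryo genes, Tfcp2l1 had a BIBR1532 3' UTR region with a score of 11.6 and Eomes a vehicle termination-site region with a score of 7.29.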
